A study of Homo sapiens with 7 samples.

Results

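The peaks described here lie in human pseudogenes. A peak was taken when its centre fell in the span of a RefSeq pseudogene on hg38 and in no span of a protein-coding gene, and the mitochondrial chromosome and pseudogenes of small structured RNAs (symbols starting RNU, RNVU, RN7S, RNA5S, RNY, SNOR, SCARNA or VTRNA) were left out. The 4 deposited lists held 59659 peaks, of which 1166 (1.95%) met this rule, in 450 of the 10009 pseudogenes that it could reach. The pseudogene under a peak was tied to its parent gene, the gene it was copied from, through its symbol: RPL6P27 is a copy of RPL6.

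All libraries came from HEK-293T, an embryonic kidney cell line, and held RNA fragments captured for N6-methyladenosine (m6A), a methyl mark on adenosine. The m6A-ORL chemistry used 3 steps on RNA fragments (NO/O2, then TDO, then a probe named BA), after which biotinylated RNA was pulled down on streptavidin beads and released with DTT. In MeRIP, fragments were captured with an anti-m6A antibody. Each method had 2 captured libraries and the study compared how the methods perform. Per the labels, m6A-ORL replicate 1 was made from total RNA, while m6A-ORL replicate 2 and both MeRIP libraries were made from polyA RNA; the protocol shared by all samples speaks of oligo(dT) beads without exception. RNA type and replicate cannot be told apart within m6A-ORL. The labels do not say whether the libraries of a method stem from different cultures; a p-value given here therefore reflects library-to-library spread, part or all of which may be technical. The 3 inputs were not analysed here.

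A processed pseudogene arises when a messenger RNA is copied into DNA and inserted elsewhere in the genome, so it has no introns and resembles the spliced parent message. Highly expressed housekeeping genes, those of ribosomal proteins above all, have left many such copies, and short reads can match a copy and its parent nearly equally well. Other pseudogenes are duplicated genes that keep their introns, and some pseudogenes of either kind are transcribed. The mark itself is placed on messenger RNA and long noncoding RNA mainly at sites with the letters GGAC or close variants.

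Peak letters could be read only where a RefSeq (GRCh38.p14) table of gene start windows or of microRNAs holds them, which was the case for 17 peaks of 1 block in 10 pseudogenes. The 6 stretches below, from 6 of these pseudogenes, show such peaks from both methods, 3 from start windows of neighbouring genes and 3 from microRNAs inside copies. They were chosen after their values were seen. Each is written 5′ to 3′ on the strand of the peak, with GGAC in capitals, and the microRNA table writes U for T.
FAHD2CP: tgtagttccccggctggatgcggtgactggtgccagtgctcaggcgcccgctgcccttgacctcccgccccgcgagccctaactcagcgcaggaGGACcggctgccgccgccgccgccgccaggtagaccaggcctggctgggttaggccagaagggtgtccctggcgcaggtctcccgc
ZNRF2P2: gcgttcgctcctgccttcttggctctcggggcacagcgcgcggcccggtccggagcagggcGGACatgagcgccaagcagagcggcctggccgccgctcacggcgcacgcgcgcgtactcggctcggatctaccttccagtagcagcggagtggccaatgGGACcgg
PTMAP4: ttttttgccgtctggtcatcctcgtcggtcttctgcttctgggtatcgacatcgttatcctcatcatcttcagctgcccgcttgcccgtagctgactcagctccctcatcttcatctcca
MTRNR2L8: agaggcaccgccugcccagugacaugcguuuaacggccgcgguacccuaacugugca
RPS27AP5: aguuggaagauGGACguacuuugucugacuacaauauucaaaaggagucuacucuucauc
MTRNR2L13: accgugcaaagguagcaua

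The FAHD2CP stretch is a whole peak, chr2:96010610-96010789 on the plus strand (180 nt), listed with the same ends in both MeRIP libraries and in no m6A-ORL list. It has 1 GGAC on the peak's strand and 1 on the other strand, and 49.5% of the 35116 start windows in the table hold GGAC in the same 180 positions (73.2% on either strand). The ZNRF2P2 stretch is 167 nt (chr7:29685089-29685255) of the 414 nt peak chr7:29684842-29685255 on the minus strand, which both MeRIP libraries list. It holds GGAC 2 times on that strand and 1 time on the other, where 47.2% of start windows hold it on the strand read (71.0% on either). The PTMAP4 stretch is 120 nt (chr12:9240003-9240122) of the 209 nt peak chr12:9240003-9240211, listed on the plus strand by m6A-ORL replicate 2. It holds no GGAC on either strand, and 37.3% of start windows hold it in these positions (59.7% on either).

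The 3 microRNA stretches all come from m6A-ORL replicate 1. The MTRNR2L8 stretch is the hairpin of MIR4485, chr11:10508270-10508326 on the minus strand, and the ends of this 57 nt peak are those of the hairpin. The RPS27AP5 stretch is the 60 nt of the MIR4426 hairpin (chr1:192716328-192716387, plus strand) that lie in a 147 nt peak. GGAC stands 1 time in the RPS27AP5 stretch and 0 times in the MTRNR2L8 stretch on the peak's strand, and 27.3% of the 1562 hairpins in the table hold it (42.1% on either strand). The MTRNR2L13 stretch is the mature miR-1973, chr4:116299750-116299768 on the plus strand, inside a 207 nt peak, and it has no GGAC, which 8.72% of the 2545 mature microRNAs hold. A match of these letters is a description of the stretch and not of a methylated site.

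Pseudogene peaks were a small and uneven share of the lists. They numbered 250 in m6A-ORL replicate 1, 68 in m6A-ORL replicate 2, 421 in MeRIP replicate 1 and 427 in MeRIP replicate 2. Their share of the list was 2.27% (95% Clopper-Pearson interval 2.0 to 2.56) in m6A-ORL replicate 1 and 0.888% (0.690 to 1.12) in m6A-ORL replicate 2, against 2.03% (1.84 to 2.23) and 2.11% (1.92 to 2.32) in the MeRIP libraries. The m6A-ORL libraries thus lay on both sides of the MeRIP pair, and the intervals of m6A-ORL replicate 1 and of the MeRIP libraries overlap. The mean was 1.58% ± 0.976 for m6A-ORL and 2.07% ± 0.0596 for MeRIP (SD, n = 2 each), a difference of -0.492 percentage points (exact two-sided permutation p = 1, the smallest possible being 0.33). Without m6A-ORL replicate 2 the difference was 0.198 percentage points, so 1 library sets its sign. The lists differ in length, with 11022 and 7661 peaks for m6A-ORL and 20760 and 20216 for MeRIP, and the intervals cover counting error only.

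Peaks covered 191 pseudogenes in m6A-ORL replicate 1 and 56 in m6A-ORL replicate 2, against 233 and 240 in the MeRIP libraries. These are 1.91, 0.559, 2.33 and 2.4 percent of the pseudogenes that the rule could reach, beside 29.3, 20.8, 41 and 40.1 percent of the 20056 protein-coding genes with a peak in the same 4 lists. Most of the pseudogenes carried 1 peak: 150 and 44 of them in the m6A-ORL libraries, and 125 and 134 in the MeRIP libraries. Some peaks of a list overlap each other (49 and 15 pseudogene peaks in m6A-ORL, 66 and 66 in MeRIP), and merging these leaves 224 and 61 separate regions for m6A-ORL and 388 and 393 for MeRIP. Pseudogene peaks overlapped one another or a neighbour more often than the rest of their list did, in 19.6% and 22.1% of cases for m6A-ORL and 15.7% and 15.5% for MeRIP, beside 7.32%, 6.40%, 8.18% and 7.79% for all other peaks of the same lists.

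**Figure D1:**
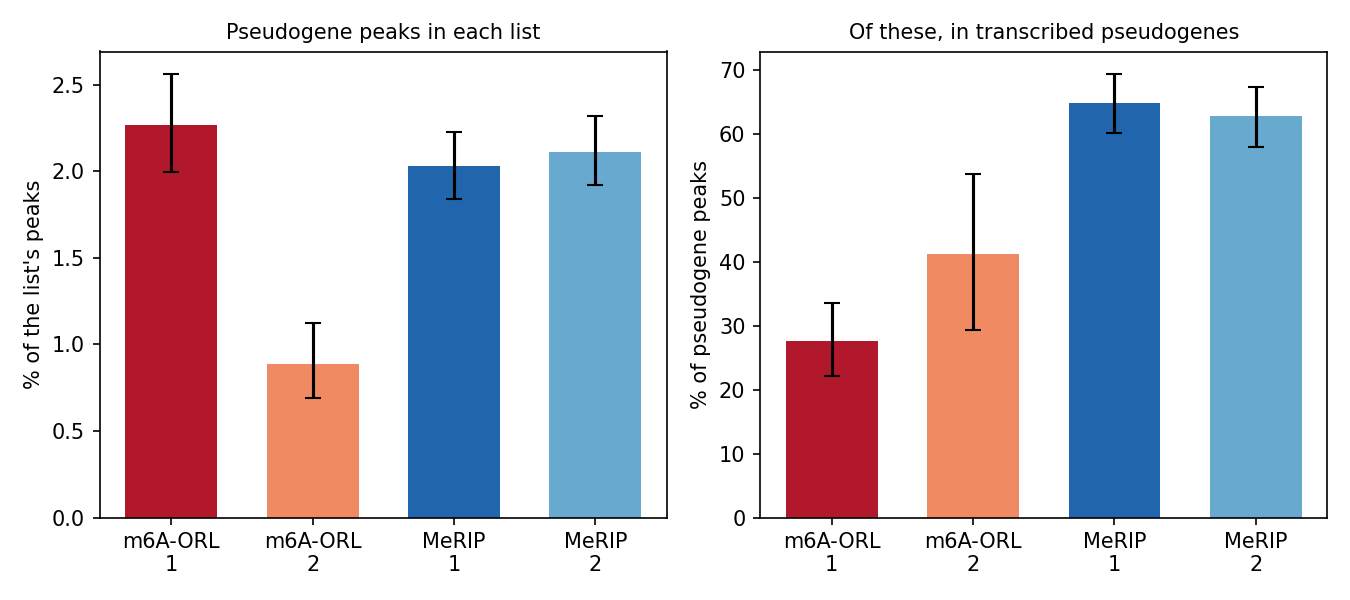
Left, pseudogene peaks as a percentage of each list (m6A-ORL replicates 1 and 2, MeRIP replicates 1 and 2); right, the percentage of those peaks that lie in pseudogenes annotated as transcribed. Bars are single libraries and error bars are exact 95% binomial intervals; the MeRIP libraries reach 64.8% and 62.8% on the right, both above the m6A-ORL libraries at 27.6% and 41.2%.

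The methods differed in the kind of pseudogene under their peaks. RefSeq marks 1112 of the 10009 pseudogenes (11.1%) as transcribed. These held 69 of 250 peaks (27.6%) in m6A-ORL replicate 1 and 28 of 68 (41.2%) in m6A-ORL replicate 2, against 273 of 421 (64.8%) and 268 of 427 (62.8%) in the MeRIP libraries. The groups do not overlap: both MeRIP libraries were above both m6A-ORL libraries. Means were 34.4% ± 9.60 for m6A-ORL and 63.8% ± 1.47 for MeRIP (SD, n = 2 each), a difference of -29.4 percentage points (exact two-sided permutation p = 0.33, the smallest possible). Without m6A-ORL replicate 1, the library of total RNA, the difference was -22.6.

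The annotation bears on what to call these loci. Transcribed pseudogenes have a median span of 11470.5 nt and other pseudogenes of the table a median of 928 nt, and a compact intronless copy has a short span. The median span of the pseudogenes under peaks was 1231 nt in m6A-ORL replicate 1 and 1676.5 nt in m6A-ORL replicate 2, against 8623 nt and 7019 nt in the MeRIP libraries. Most MeRIP peaks therefore lie in long, transcribed pseudogenes rather than in compact copies of a message, and the name processed pseudogene holds for part of the set only. Among annotated pseudogenes, 184 of the transcribed (16.5%) and 266 of the 8695 others typed plainly as pseudogenes (3.06%) carried a peak in some list. A longer span has more room for a centre, and expression was not measured here, so the part of either in these shares was not tested.

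The next comparison was which parents the copies came from. Copies of cytosolic ribosomal protein genes, whose products build the ribosome, were the largest named group in m6A-ORL, with 86 of 250 pseudogene peaks (34.4%, interval 28.5 to 40.6) in replicate 1 and 13 of 68 (19.1%, 10.6 to 30.5) in replicate 2. In MeRIP they were 13 of 421 (3.09%, 1.65 to 5.22) and 14 of 427 (3.28%, 1.80 to 5.44). The lowest m6A-ORL share is above the highest MeRIP share. The intervals do not meet, but they cover counting error within a library only and take its peaks as independent. Ribosomal protein copies make up 1238 (12.4%) of the pseudogenes that the rule could reach, and 87 of them carried a peak in some list: 74 and 12 in the m6A-ORL libraries, and 11 in each MeRIP library. The difference between methods was not tested for single groups of parents.

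In m6A-ORL, 6 of the 86 ribosomal protein copy peaks of replicate 1 were overlapped by replicate 2 and 6 of 13 the other way, beside 12 of 250 and 13 of 68 for all pseudogene peaks of these lists. In MeRIP, 9 of 13 and 9 of 14 were overlapped by the other library, beside 342 of 421 and 349 of 427. A MeRIP peak overlapped 3 of the 86 in m6A-ORL replicate 1, beside 42 of all 250. The parent had a peak of its own in the same list for 47 of the 86 peaks (54.7%) in m6A-ORL replicate 1 and 10 of 13 (76.9%) in m6A-ORL replicate 2, against 4 of 13 (30.8%) and 2 of 14 (14.3%) in MeRIP. The reading of a copy is uncertain in every library, since no source used here says how reads shared by copy and parent were placed.

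Copies of the mitochondrial chromosome in nuclear DNA appeared in m6A-ORL. They held 21 peaks in 15 pseudogenes in m6A-ORL replicate 1 and 1 peak in m6A-ORL replicate 2, against 0 of 421 and 0 of 427 pseudogene peaks in MeRIP, which allow shares of up to 0.713% and 0.703%. Such copies are 370 (3.70%) of the pseudogenes in reach, and 4.05% of them carried a peak in m6A-ORL replicate 1 and 0.270% in m6A-ORL replicate 2, beside 1.91 and 0.559 percent of all pseudogenes. Of the 21 peaks, 15 lay in the MTRNR2L genes, nuclear copies of the mitochondrial 16S ribosomal RNA gene (RNR2), and all 9 MTRNR2L pseudogenes of the table carried a peak in m6A-ORL replicate 1 and in none of the other 3 lists. RNR2 itself, on the mitochondrial chromosome, carried a peak in both m6A-ORL lists and in neither MeRIP list. The remaining 6 peaks lay in copies of COX1, COX3, ND1 and ND4, subunits of the respiratory chain, and MTCO1P13, a copy of COX1, had the 1 peak of m6A-ORL replicate 2.

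Some MTRNR2L peaks were among the best scored and the longest of their list. The authors' score was turned into a rank within its list, given in percent, with low values for the best scores. MTRNR2L12 had a 1049 nt peak at rank 0.703%, MTRNR2L1 a 1434 nt peak at rank 1.20% and MTRNR2L8 a 1303 nt peak at rank 1.41%. Each of these covers all or nearly all of its pseudogene's span, which is 1038, 1249 and 1290 nt. Over the 15 peaks the rank ranged from 0.703% to 93.1% with a median of 11.8%, and the length from 57 to 1434 nt with a median of 240 nt. The 57 nt peak is the MIR4485 hairpin shown above, inside the 1303 nt peak of MTRNR2L8. Copies of other ribosomal RNA genes stood as high in m6A-ORL replicate 1. RNA18SP2 and RNA18SP5 were at rank 0.318%, ahead of every MTRNR2L peak, with RNA5-8SP2 at 0.821% and RNA5-8SP4 at 0.939%. Peaks of equal score take their average rank, and LOC110467521 and RNA5-8SP6 share the 0.318%. The longest pseudogene peak of that list, 1848 nt, lay in a pseudogene with no listed parent group, a class that includes these ribosomal RNA copies. The span of RNA18SP2 has the same length, 1848 nt.

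Copies of translation factors, which load transfer RNAs and start or extend protein chains, were a smaller group. They held 15 and 3 peaks in the m6A-ORL libraries and 4 in each MeRIP library. EEF1A1 encodes the elongation factor that carries aminoacyl-transfer RNA to the ribosome, and 9 of its 37 copies held 13 peaks in m6A-ORL replicate 1 and none in the other 3 lists. The best ranked were in EEF1A1P9 (207 nt, rank 19.4%) and EEF1A1P13 (355 nt, rank 20.3%). None of the 13 was overlapped by a peak of another list, beside 12 of all 250 pseudogene peaks overlapped by m6A-ORL replicate 2 and 42 by MeRIP. EEF1A1 itself carried a peak in m6A-ORL replicate 2 only.

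Ribosomal protein genes were among the other parents with most copies under peaks. Of all ribosomal protein copies, 5.98% and 0.969% carried a peak in the m6A-ORL libraries, beside 1.91% and 0.559% of all pseudogenes. In each MeRIP library it was 0.889% of them, beside 2.33% and 2.4%. RPSA, a protein of the small subunit, had 8 of 58 copies under 9 peaks in m6A-ORL replicate 1 and none elsewhere, the best ranked in RPSAP26 at 10.0%. RPS2, also of the small subunit, had 8 of its 25 copies under peaks in m6A-ORL replicate 1, none in m6A-ORL replicate 2, and 1 and 2 in the MeRIP libraries. RPS2P32, annotated as transcribed, had 2 peaks in each MeRIP list and none in m6A-ORL, and the 7 RPS2 copies seen by m6A-ORL replicate 1 alone are not annotated as transcribed. RPS2P46 was listed by both methods, with peaks of 177 and 89 nt in m6A-ORL replicate 1 and 119 nt in MeRIP replicate 2. RPL13A, of the large subunit, had 4 of 14 copies under peaks, 4 and 2 of them in the m6A-ORL libraries and 1 in each MeRIP library, and was itself listed in all 4 libraries.

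Not every family leaned to m6A-ORL. Copies of cytoskeleton genes held 8 of 250 pseudogene peaks (3.20%, interval 1.39 to 6.21) in m6A-ORL replicate 1. In m6A-ORL replicate 2 they held 0 of 68, which allows a share of up to 4.41%. In MeRIP they held 16 of 421 (3.80%, 2.19 to 6.10) and 16 of 427 (3.75%, 2.16 to 6.01), so the shares of m6A-ORL replicate 1 and MeRIP were close. All these peaks lay in 12 of the 191 cytoskeleton copies in reach. None of the 12 was listed by both methods, beside 54 of all 450 pseudogenes under peaks, a difference that was not tested: TUBAP2, TUBBP1, TUBB8P6, ACTBP2 and ACTG1P25 were listed by m6A-ORL replicate 1, while TUBA3FP, TUBBP5, KRT8P12, KRT18P4, ACTG1P1, ACTG1P17 and PFN1P11 were listed by MeRIP. TUBA3FP and TUBBP5, copies of tubulin genes, held most of the MeRIP peaks, with 5 and 6 for TUBA3FP and 5 and 5 for TUBBP5. GOLGA2, which encodes a Golgi matrix protein, had 4 of 8 copies under peaks, 2 and 0 of them in the m6A-ORL libraries and 2 and 1 in the MeRIP libraries. Pseudogenes of olfactory, immune and similar receptor families, which mostly arose by duplication, are 787 of the pseudogenes in reach. They held 1 and 0 peaks in m6A-ORL (0.400% and 0% of the pseudogene peaks) and 3 in each MeRIP library (0.713% and 0.703%). Pseudogenes with no listed parent group held 99 and 41 peaks (39.6% and 60.3%) in m6A-ORL and 369 and 376 (87.6% and 88.1%) in MeRIP.

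**Figure D2:**
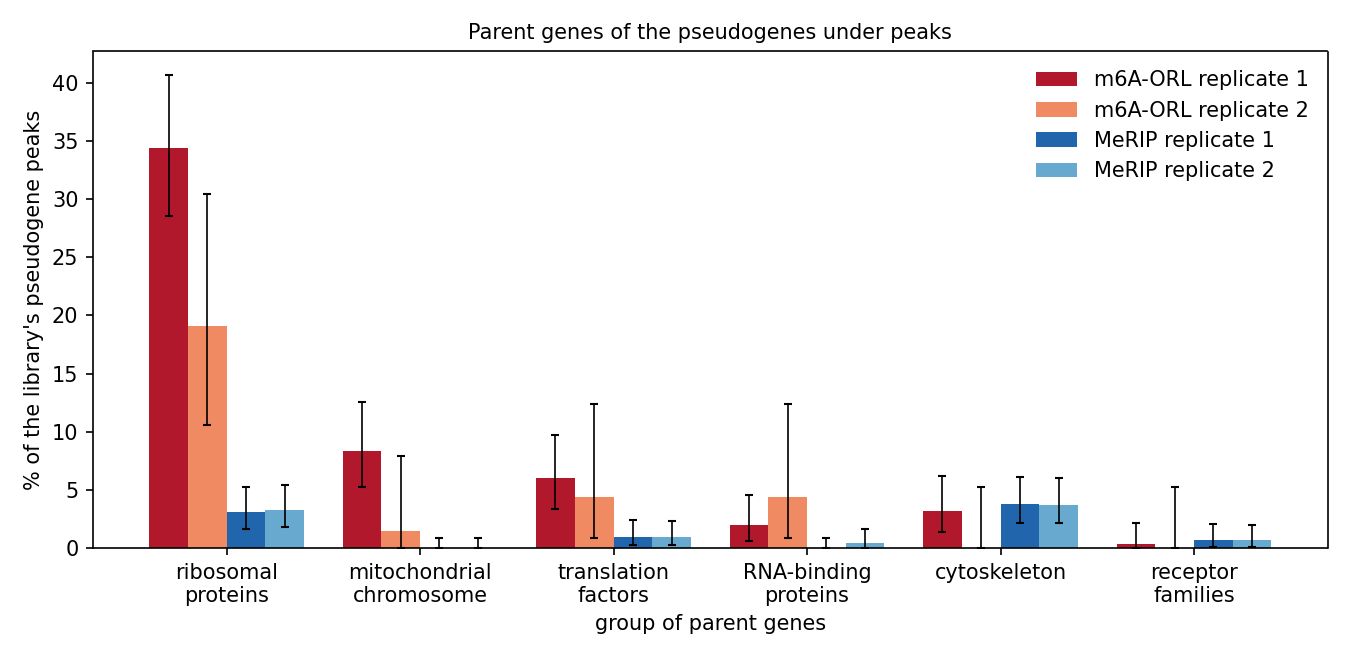
Share of each library's pseudogene peaks (percent) by group of parent genes, with 1 bar per library in the order m6A-ORL replicates 1 and 2, MeRIP replicates 1 and 2, and exact 95% binomial intervals. Ribosomal protein copies reach 34.4% and 19.1% in m6A-ORL and stay at 3.09% and 3.28% in MeRIP; mitochondrial chromosome copies are at 8.40% and 1.47% in m6A-ORL and at 0 in MeRIP.

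Parents of pseudogenes under peaks carried peaks of their own more often than other genes of the table. A parent was found by symbol for 168 and 54 pseudogene peaks of the m6A-ORL libraries and 212 and 220 of the MeRIP libraries. The parent had a peak in the same list for 96 of 168 (57.1%, interval 49.3 to 64.7) and 41 of 54 (75.9%, 62.4 to 86.5) in m6A-ORL, against 123 of 212 (58.0%, 51.1 to 64.7) and 136 of 220 (61.8%, 55 to 68.3) in MeRIP. The methods overlap in this share: means were 66.5% ± 13.3 for m6A-ORL and 59.9% ± 2.69 for MeRIP (SD, n = 2 each; difference 6.62 percentage points, exact two-sided permutation p = 1), and without m6A-ORL replicate 2 the difference was -2.78.

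Counting each parent once gave the same order against both backgrounds. In m6A-ORL replicate 1, 52 of 86 parents of pseudogenes under peaks had a peak (60.5%), beside 44.1% of the parents whose copies had none and 29.3% of all protein-coding genes. In m6A-ORL replicate 2 these shares were 70.7%, 33.9% and 20.8%. In MeRIP replicate 1 they were 55%, 44.0% and 41.0%, and in MeRIP replicate 2 they were 56.9%, 42.1% and 40.1%. Genes are not independent replicates, and no test was made of this description.

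Across libraries, few pseudogenes recurred in m6A-ORL and most did in MeRIP, as was the case for the lists as a whole, where the other library of the method overlapped 13.8 and 19.6 percent of all m6A-ORL peaks and 83.6 and 86 percent of all MeRIP peaks. A peak in both lists of the method was found for 18 pseudogenes of m6A-ORL and 198 of MeRIP. Of the pseudogenes of m6A-ORL replicate 1, 9.42% were also in replicate 2, and 32.1% the other way, whereas 85.0% and 82.5% recurred between the MeRIP libraries. With every list cut to the 7661 best scored peaks, 16 pseudogenes were in both m6A-ORL lists and 57 in both MeRIP lists. Any m6A-ORL list held 229 pseudogenes and any MeRIP list 275, and 54 were in both sets, which is 23.6% of the m6A-ORL and 19.6% of the MeRIP pseudogenes.

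The set seen by m6A-ORL replicate 1 alone was the largest of m6A-ORL, with 140 pseudogenes. Their median span was 1025 nt, 62 of them (44.3%) were ribosomal protein copies and 10.0% were annotated as transcribed. The 13 pseudogenes in both m6A-ORL lists and no MeRIP list had a median span of 1101 nt, and 7 were ribosomal protein copies and 1 was annotated as transcribed. The 152 pseudogenes in both MeRIP lists and no m6A-ORL list had a median span of 6616 nt, 5 were ribosomal protein copies and 59.9% were annotated as transcribed. The 42 seen by both MeRIP libraries and 1 m6A-ORL library had a median span of 11197 nt and 73.8% were annotated as transcribed.

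**Figure D3:**
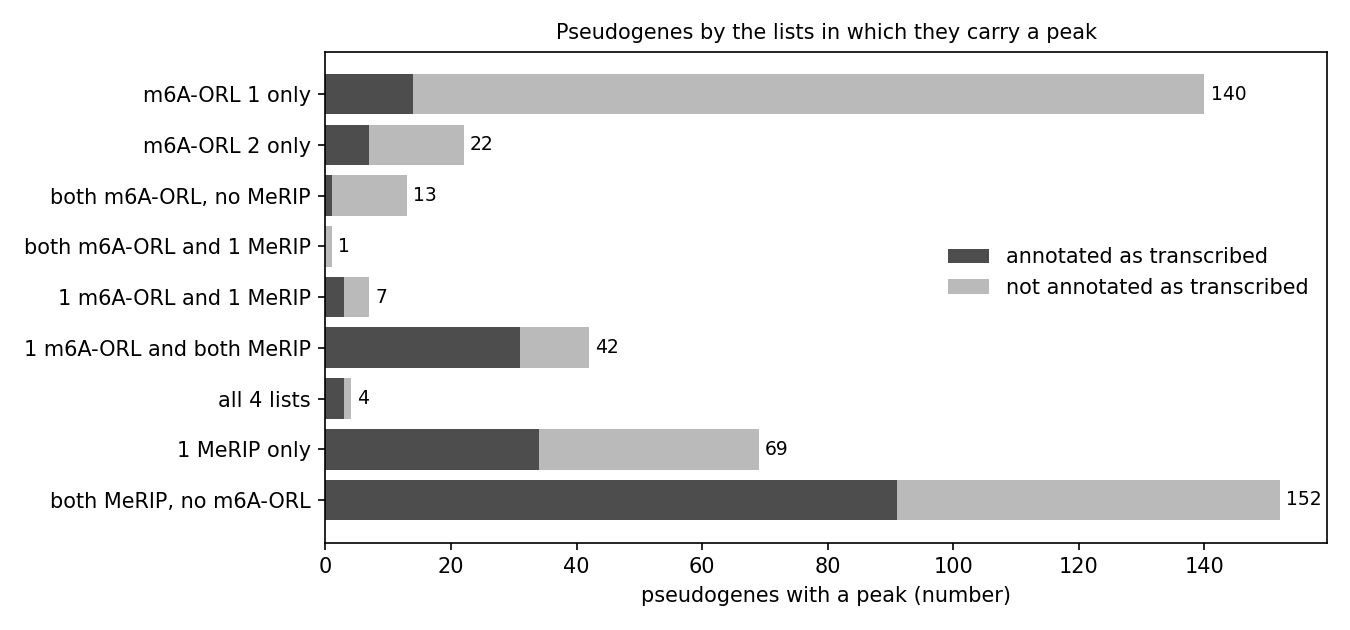
Number of pseudogenes by the lists in which they carry a peak, from those seen by m6A-ORL alone at the top to those seen by MeRIP alone at the bottom; dark segments are pseudogenes annotated as transcribed. The largest sets are the 152 in both MeRIP lists and the 140 in m6A-ORL replicate 1 alone, and 4 are in all 4 lists.

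In 4 pseudogenes a peak was found in every list. C19orf48P (chr19:50797704-50804594) and ZNF271P (chr18:35290272-35310766) are long and annotated as transcribed, RPL13AP5 (chr10:96750266-96750923) is an annotated transcribed copy of RPL13A, and MCRIP2P1 (chrX:131795372-131796170) is a short copy of MCRIP2 with no such mark. In C19orf48P, both MeRIP libraries listed the same 1106 nt peak at ranks 0.691% and 0.762%. It contains peaks of m6A-ORL replicate 1 (300 nt at rank 19.3% and 91 nt at rank 97.8%) and the 150 nt peak of m6A-ORL replicate 2 (rank 31.4%), which do not overlap each other. In MCRIP2P1, MeRIP peaks of 1049 and 1019 nt at ranks of 1.69% and 1.56% likewise contain the peaks of m6A-ORL replicate 1 (180 and 143 nt) and of m6A-ORL replicate 2 (171 and 150 nt), which lie at different places.

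RPL13AP5 shows the methods apart within 1 copy. The peaks were chr10:96750404-96750666 in m6A-ORL replicate 1 and chr10:96750521-96750637 in m6A-ORL replicate 2, against chr10:96750754-96750899 and chr10:96750783-96750899 in the MeRIP libraries, all on the plus strand. The m6A-ORL centres sit at 40.9% and 47.6% of the span and the MeRIP centres at 85.2% and 87.5%, and no base is shared between methods. In ZNF271P the 240 nt peak of m6A-ORL replicate 1 and the 91 nt peak of m6A-ORL replicate 2 are 2 different places, and each is overlapped by a peak in both MeRIP lists.

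**Figure D4:**
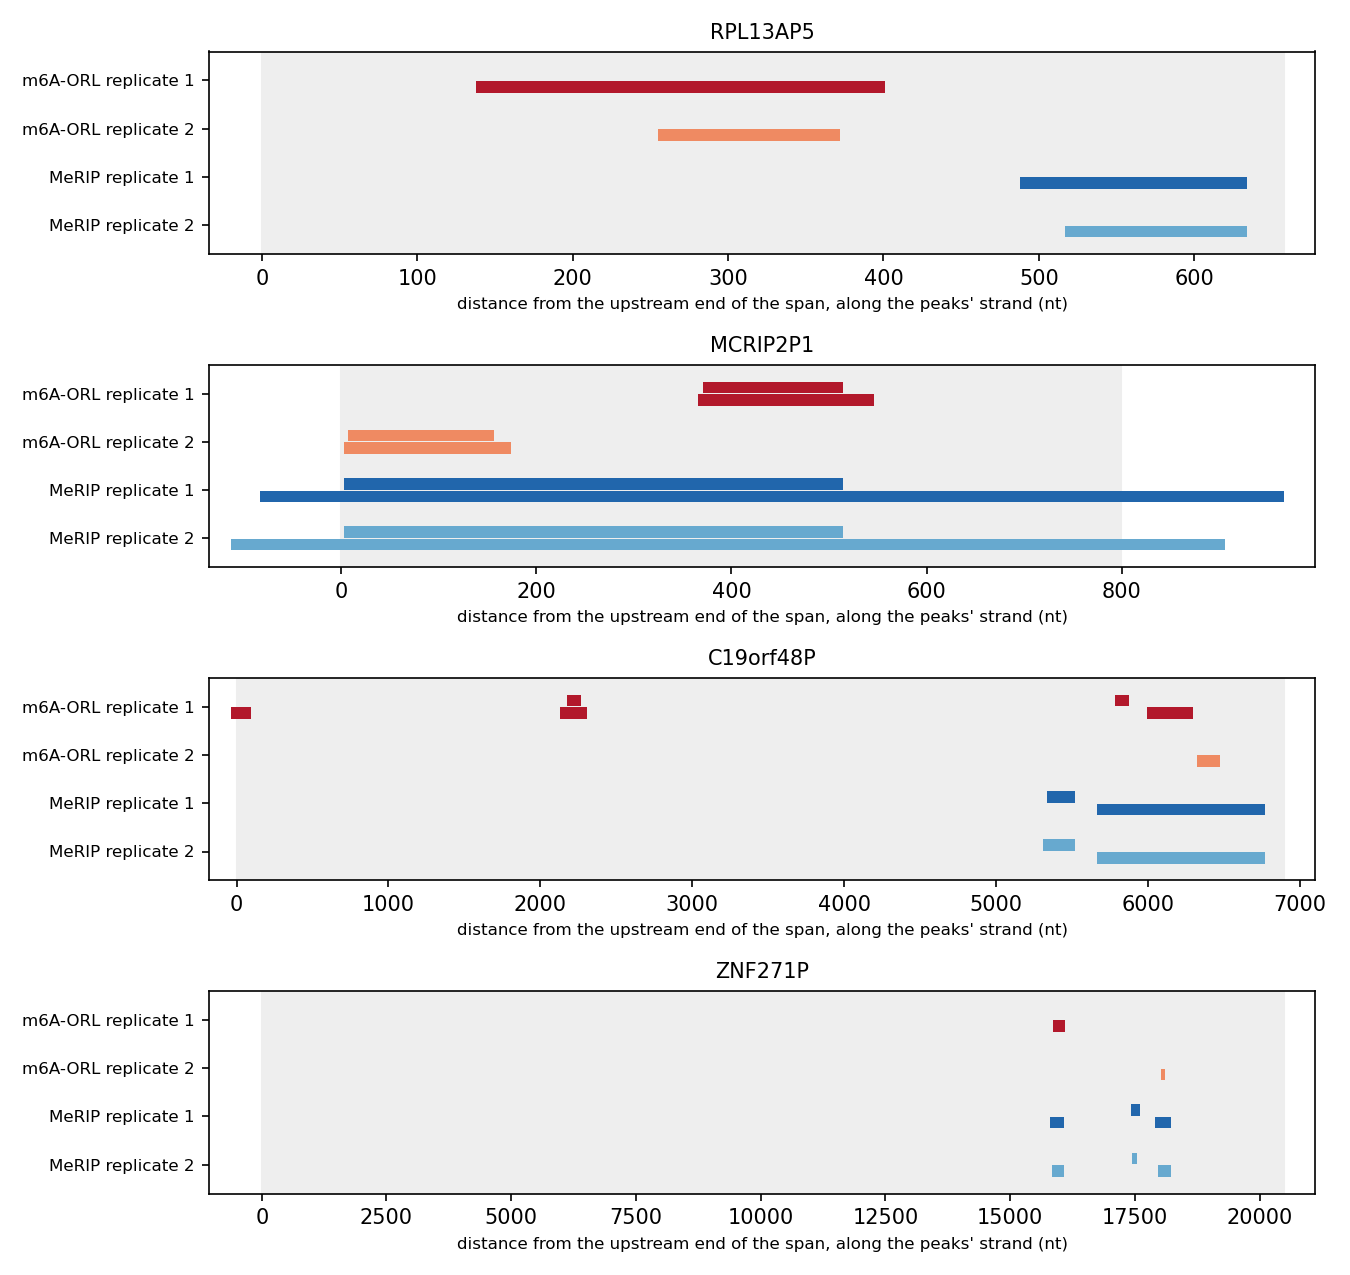
Peaks in the 4 pseudogenes found in every list, drawn as distance (nt) from the upstream end of the pseudogene's span along the peaks' strand, with the span shaded and a row per library, m6A-ORL above MeRIP. A peak of several blocks is drawn over its whole interval and peaks of a list are offset for clarity; in RPL13AP5 the m6A-ORL peaks lie upstream of the MeRIP peaks without overlap, while in C19orf48P and MCRIP2P1 long MeRIP peaks contain m6A-ORL peaks.

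Among the copies in both m6A-ORL lists and in no MeRIP list, RPL6P27 had the best mean rank. Its peak, chr18:6462173-6462405 on the minus strand (233 nt), had the same ends in both m6A-ORL lists, at rank 19.2% in replicate 1 and 14.7% in replicate 2. RPL6, the parent and a protein of the large subunit, had a peak in both m6A-ORL lists as well and in neither MeRIP list. RPLP1P4, a copy of an acidic stalk protein gene, had a 345 nt peak at rank 9.09% in m6A-ORL replicate 1 that contains the 58 nt peak of m6A-ORL replicate 2 (rank 32.9%).

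YBX1P10, a copy of an RNA-binding protein gene, had peaks of 207 nt and 296 nt that share an end. RPL13P12, RPS7P1, RPLP0P6 and RPL13AP3 are further ribosomal protein copies, of which RPS7P1 and RPL13AP3 had peaks at different places in the m6A-ORL libraries. RNPS1P1 and TPI1P1 are copies of a splicing cofactor gene and of a glycolysis gene. RNA5-8SP6 (chrY:10200155-10200306), a copy of the 5.8S ribosomal RNA gene, had a 152 nt peak over its whole span in both m6A-ORL lists, at rank 0.318% in replicate 1 and 92.0% in replicate 2.

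Pseudogenes in both MeRIP lists and in no m6A-ORL list were led by long peaks. DUXAP10 (chr14:19294785-19337674), annotated as transcribed and named for the homeobox gene DUXA, had a 2427 nt peak at rank 2.04% in MeRIP replicate 1, and MeRIP replicate 2 listed peaks of 1469 and 899 nt over the same stretch at ranks 1.78% and 9.51%. DUXA itself had no peak in any list. LOC101929479 had a peak of 420 nt in 4 blocks with the same ends in both MeRIP lists, at ranks 3.73% and 3.90%. FAM239B had a 750 nt peak in both at ranks 4.21% and 3.85%, and FAM220CP the same 594 nt peak in both at ranks 13.5% and 13.7%. BMS1P20, LOC102723945, SMPD4BP, ANKRD19P, RRN3P3 and PRKXP1 completed the 10 best ranked.

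Pseudogenes with several peaks were mostly seen by both methods or by MeRIP. CENPBD1P (chr16:89969775-89972496) held 4 and 0 peaks in the m6A-ORL libraries and 8 and 12 in the MeRIP libraries, which merge into 2 and 0 regions for m6A-ORL and 3 and 4 for MeRIP, since similar peaks repeat with shifted ends. CSPG4P5, a copy of the proteoglycan gene CSPG4 not annotated as transcribed, held 8 and 7 peaks in MeRIP, merging into 4 regions in each, and none in m6A-ORL. ZNF37BP held 5 and 0 peaks in m6A-ORL and 6 and 4 in MeRIP, and GFOD3P held 3 and 0 in m6A-ORL and 5 in each MeRIP library. ABCA11P, with 4 peaks in m6A-ORL replicate 1, HTATSF1P2, with 6 in MeRIP replicate 1, and PERPP2, with 5 in MeRIP replicate 2, were also among those with most peaks of a list. No pseudogene had more than 2 peaks in m6A-ORL replicate 2, and the best ranked with 2 were PTMAP4, EP400P1, SERBP1P1, MCRIP2P1 and ORAI1, the last of which the RefSeq table types as a transcribed pseudogene.

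PTMAP4, a copy of the prothymosin gene PTMA, had its 2 peaks in m6A-ORL replicate 2 at the same place on opposite strands, 209 nt on the plus strand at rank 11.7% and 202 nt on the minus strand at rank 12.4%. Peaks on both strands anywhere in the span were found for 6 of 191 and 1 of 56 pseudogenes in m6A-ORL. In MeRIP they were found for 34 of 233 and 36 of 240. These peaks need not lie at the same place, and the MeRIP pseudogenes have longer spans (medians 8623 and 7019 nt, against 1231 and 1676.5 nt). The share over other genes was not computed. The RefSeq table gives no strand, so sense and antisense peaks of a pseudogene were not told apart here. The PTMAP4 letters shown above were not compared with the parent message.

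At the level of single peaks, pseudogene peaks were overlapped across methods less often than the rest of their list. A peak of either list of the other method shared at least 1 nt on the same strand with 42 of 250 (16.8%) and 12 of 68 (17.6%) pseudogene peaks of m6A-ORL, and with 43 of 421 (10.2%) and 37 of 427 (8.67%) of MeRIP. Over all peaks of the same lists these shares were 54.7, 47.8, 33.5 and 33 percent. Against the other peaks of each list the difference averaged -29.5 percentage points ± 6.87 (SD, n = 4 libraries) and was lower in 4 of 4 libraries (exact two-sided sign-change permutation p = 0.13, the smallest possible). The same overlaps are counted from the side of each list, so the 4 differences are not independent. The p-value takes them as independent, here and in the other overlap tests below.

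Peaks in long noncoding RNA spans gave a nearer comparison, chosen after the data were seen. There the other method overlapped 28.4% and 55.2% of m6A-ORL peaks and 12.1% and 11.2% of MeRIP peaks, so pseudogene peaks were again lower in 4 of 4 libraries, with differences between -37.6 and -1.88 percentage points (mean -13.4 ± 16.7, SD, n = 4; exact p = 0.13). The difference from long noncoding RNA peaks is thus large in m6A-ORL and small in MeRIP.

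**Figure D5:**
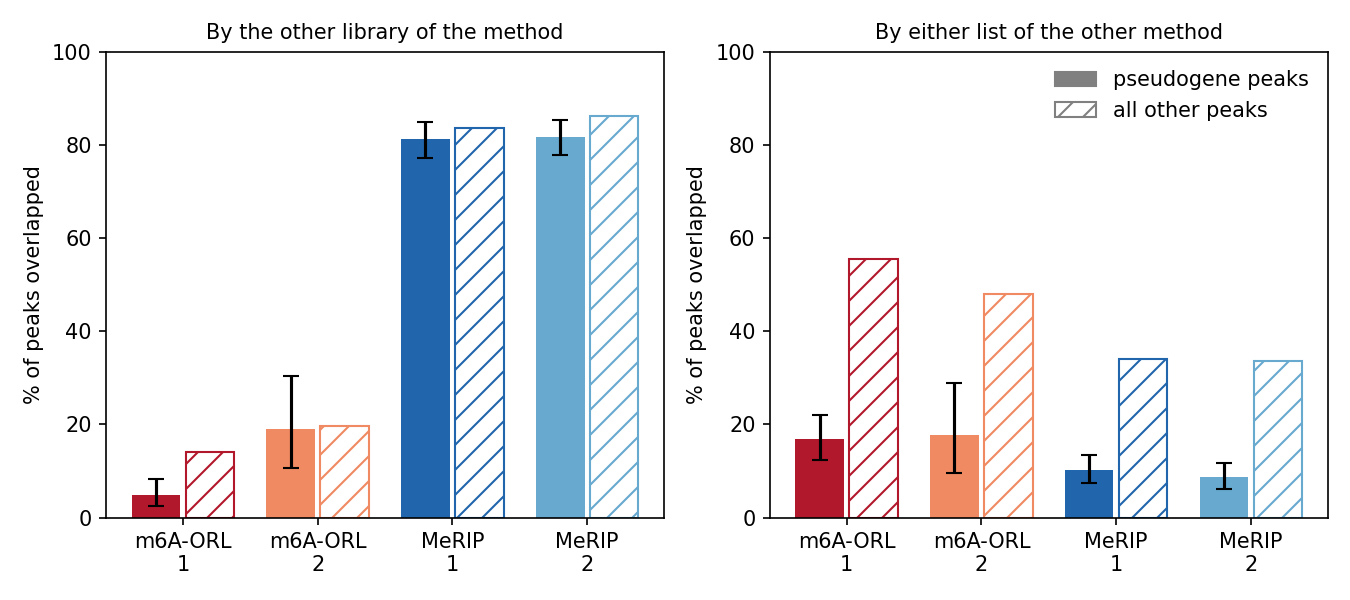
Percentage of peaks overlapped by the other library of the same method (left) and by either list of the other method (right), for pseudogene peaks (filled, exact 95% binomial intervals) and all other peaks of the list (hatched). Pseudogene peaks stand at 16.8%, 17.6%, 10.2% and 8.67% on the right, below 55.6%, 48.1%, 34.0% and 33.5% for the other peaks, while the bars of a library lie closer together on the left.

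Transcribed and other pseudogenes stood far apart in m6A-ORL replicate 1, where 32 of 69 peaks in transcribed pseudogenes (46.4%) were overlapped by a MeRIP list, against 10 of 181 (5.52%) in the others. In m6A-ORL replicate 2 they were 6 of 28 (21.4%) and 6 of 40 (15.0%). In MeRIP replicate 1 they were 31 of 273 (11.4%) and 12 of 148 (8.11%), and in MeRIP replicate 2 they were 28 of 268 (10.4%) and 9 of 159 (5.66%). The share overlapped by the other method was higher in transcribed pseudogenes in each of the 4 libraries, a description of peaks that was not tested. Overlap by the other library of the method did not follow this order. In m6A-ORL it was 1 of 69 and 1 of 28 in transcribed pseudogenes, against 11 of 181 and 12 of 40 in the others. In MeRIP it was 81.0% and 84.7%, against 81.8% and 76.7%.

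Within a method, the difference between pseudogene peaks and other peaks was smaller, except in m6A-ORL replicate 1. The other library of the method overlapped 12 of 250 (4.80%) and 13 of 68 (19.1%) pseudogene peaks of m6A-ORL, and 342 of 421 (81.2%) and 349 of 427 (81.7%) of MeRIP, beside 13.8, 19.6, 83.6 and 86 percent of all peaks of those lists. The difference from the other peaks of the list averaged -4.13 percentage points ± 3.75 (SD, n = 4 libraries) and was lower in 4 of 4 libraries (exact two-sided p = 0.13). Here too the same overlaps are counted from both libraries of a method. The gap was widest in m6A-ORL replicate 1, at 4.80% for pseudogene peaks and 14.0% for other peaks. Against peaks in long noncoding RNA spans, the mean difference was -0.21 percentage points ± 3.91 (lower in 2 of 4 libraries; exact p = 0.88). Against all protein-coding peaks it was -4.46 ± 4.08 (lower in 4 of 4, exact p = 0.13). Between the better scored parts of both classes it was -0.08 ± 12.1 (lower in 1 of 4; exact p = 1) and between the worse scored parts -0.87 ± 3.86 (lower in 3 of 4; exact p = 0.75). The mean deficit within a method thus varies with the comparison. The -0.08 averages differences from -15.3 to 14.2. Better scored pseudogene peaks of m6A-ORL gave 5.13% and 40% (8 of 20), beside 20.5% and 25.8% of coding peaks. In MeRIP they gave 100% and 100%, beside 99.4% and 99.8%, where a deficit could hardly show. Worse scored peaks of m6A-ORL replicate 1 gave 4.51%, beside 8.91%. Peaks with the same ends and blocks in both libraries of a method numbered 2 in m6A-ORL, in RPL6P27 and RNA5-8SP6, and 63 in MeRIP. They were 0.8% and 2.94% of the m6A-ORL pseudogene peaks, beside 0.334% and 0.474% of the other peaks. In MeRIP they were 15.0% and 14.8%, beside 17.0% and 17.4% of the other peaks.

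Pseudogene peaks also ranked lower by score. Their median rank was 52.3% and 66.9% in m6A-ORL and 64.4% and 61.7% in MeRIP, beside 50%, 49.8%, 49.7% and 49.6% for the other peaks of the lists (mean difference 11.6 percentile points ± 6.49, SD, n = 4; worse in 4 of 4; exact p = 0.13). Their median length was 148 and 90 nt in m6A-ORL and 180 and 181 nt in MeRIP, beside 140.5, 149, 211 and 211 nt for the other peaks (mean difference -28.1 nt ± 27.3, shorter in 3 of 4; exact p = 0.25). Several blocks, which mark a peak across a splice junction, were found in 5.60% and 5.88% of m6A-ORL and 11.4% and 10.3% of MeRIP pseudogene peaks, beside 9.98%, 27.9%, 17.0% and 16.4% of the others (mean difference -9.53 percentage points ± 8.39, fewer in 4 of 4; exact p = 0.13). Score and cross-method overlap move together in MeRIP: among better scored peaks 21.9% and 17.3% of MeRIP pseudogene peaks were overlapped by m6A-ORL, and among worse scored ones 4.58% and 3.97%. This is not particular to pseudogenes: protein-coding peaks of MeRIP gave 51.8% and 51.4% among better scored and 17.7% and 17.4% among worse scored ones. In m6A-ORL the better and worse scored pseudogene peaks gave 14.5% and 18.8% for replicate 1 and 15.0% (3 of 20) and 18.8% for replicate 2. Protein-coding peaks there had the reverse order, with 65.6% and 52.3% for replicate 1 and 54.0% and 42.3% for replicate 2.

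Several properties of the annotation limit single loci. The centre also fell in a long noncoding RNA span for 13.6% and 13.2% of m6A-ORL and 21.4% and 21.5% of MeRIP pseudogene peaks, and in more than 1 pseudogene span for 12 and 6 m6A-ORL and 53 and 59 MeRIP peaks, where the smallest span was taken. A further 160 and 66 peaks of m6A-ORL and 310 and 318 of MeRIP had their centre in a pseudogene but also in a protein-coding span and were left out. In copies not annotated as transcribed the median position of the centre was 46.2% and 39.2% of the span in m6A-ORL and 48.2% and 44.6% in MeRIP. It was counted along the peak's strand, since the strand of the copy is not given. The methods overlap in this value (exact two-sided permutation p = 0.67, the smallest possible being 0.33). A test of 2 libraries a method cannot show that a difference is absent.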

How the data were processed

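The members and the lists of parent groups were chosen with earlier results of these data known. Each deposited list has 12 BED columns, per the file headers and values, with position, strand, blocks, an Ensembl ID and a score. The authors' deposited score has the range of a p-value or q-value and served only to rank peaks within a list. The sources used here do not say which it is, nor name the peak caller, its threshold or the handling of reads with several matches. Trim Galore, STAR, HOMER and hg38 are named without versions, per the submitters' processing notes. Read depth is unknown, and the number of peaks limits precision.

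Exact duplicate lines were removed (2 and 1 in m6A-ORL, 4 and 3 in MeRIP). Pseudogenes and parents came from the RefSeq gene table (GRCh38.p14, the build of the files), which has no strand, exons or Ensembl IDs. Of 17088 pseudogenes, 13663 passed the rule on symbols and chromosomes and 10009 had a base outside protein-coding spans. Parents were matched by symbol (6039 pseudogenes). Overlap meant at least 1 nt of blocks on 1 strand. Lists were compared in Python 3.11.15 (numpy 2.4.6, pandas 2.3.3, scipy 1.17.1), by exact two-sided permutation, either of the methods among the 4 libraries (3 splits) or of the sign within libraries, with 95% Clopper-Pearson intervals. For a share of 0, the limit is 3 peaks of the total. The code was tested on simulated lists. Pseudogenes were named when in all lists, in both lists of 1 method alone (10 best mean ranks), with most peaks per library (5), or under the 10 parents with most copies; others were named after their values were seen.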

Additional observations from a re-analysis of the deposited data

How the results depend on the processing

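Of 108 recomputed values, 97 kept their direction and stayed within the limits set for them. Some of the 97 could not change, so the tally is no measure of robustness. Replicate numbers as a block leave the means as they are. A count over the MeRIP lists is untouched by leaving out an m6A-ORL library, and the reverse. The share of pseudogene peaks, m6A-ORL minus MeRIP, was -0.492 percentage points and turned to 0.274 with lists of equal length, 0.293 without transcribed pseudogenes and 0.0246 with only those whose parent was found by symbol, and ranged from -1.18 to 0.198 when a library was left out (0.198 without m6A-ORL replicate 2); the cause was not tested. At equal list length 57 pseudogenes were in both MeRIP lists and 2 in all 4 lists, since fewer peaks were used. Leaving out a library gave 18 to 191 pseudogenes in both m6A-ORL lists and 4 to 32 in all lists, because fewer lists had to agree. The difference in the share of peaks whose parent has a peak ranged from -2.78 to 16.0 percentage points. The share of transcribed pseudogenes kept its sign under all 16 alternatives, between -54.1 and -22.6 percentage points, and overlap by the other method under all 10, between -38.5 and -13.4. Overlap by the other library of the method, as a mean over libraries, stayed below that of the compared peaks under all 10, between -4.87 and -0.08. It was nearest to 0 against long noncoding RNA peaks (-0.21) and better scored coding peaks (-0.08), where single libraries went both ways. With replicate numbers as a block, these differences in share, parents and transcribed pseudogenes were again -0.492 (exact p = 1), 6.62 (exact p = 1) and -29.4 (exact p = 0.5, the smallest that 2 pairs allow), and the numbers pair nothing that the labels name. Merging overlapping peaks and comparing with long noncoding RNA or coding peaks by score were added after the data were seen. With 2 libraries a method and unknown depth, no test here could reach 0.05.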
